A study of Mus musculus with 12 samples.

Results

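The 10 genes described here encode glucose transporters and enzymes of glycolysis in mouse embryonic stem cells (ESCs): *Slc2a1*, *Slc2a3*, *Hk1*, *Hk2*, *Gpi1*, *Pfkl*, *Pfkp*, *Aldoa*, *Pkm* and *Ldha*. They were taken by symbol from a table of RPKM values with 50978 rows, in which they fill 11 rows. All 10 were among the 12917 genes that exceeded 1 CPM, the usual measure of reads scaled to library depth, in at least 2 libraries, the condition for testing. The study compared parental ESCs with ESC + H/F-PRAMEL7WT (7WT cells) and ESC + H/F-PRAMEL7ΔN (7ΔN cells) by sequencing of polyadenylated RNA, with 2 libraries per line from independent dishes in the files, although the methods describe triplicates. All 3 lines are E14 ESCs grown in 15% serum with LIF on gelatin, without feeder cells. In both derived lines Cas9 had placed an HA/FLAG-tagged *Pramel7* sequence at *Rosa26*, driven by the ubiquitous CAG promoter, puromycin had been used for selection, and clones had been grown from single cells. PRAMEL7ΔN lacks 50 N-terminal amino acids according to the labels, while the study's text gives another length for the deletion, which was made to remove the domains that bind the ubiquitin ligase scaffold CUL2. Each derived line is a clone, so an effect of the transgene and a property of the clone cannot be told apart, and p-values measure only the spread between dishes.

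Glycolysis turns glucose into pyruvate in the cytoplasm. Facilitative transporters carry glucose in, hexokinase traps it as glucose-6-phosphate, phosphofructokinase makes the committed step, aldolase splits the hexose, and pyruvate kinase and lactate dehydrogenase close the route to lactate. Mouse ESCs in serum and LIF are known to run this route while they also respire, and each step can be served by several isoenzymes from separate genes. The question here was which of these genes differed between the lines, and whether the isoenzymes of a step moved together.

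The depth, as reads on genes, was 1.83e+07 to 1.99e+07 per library. *Pramel7* itself had 0.257 and 0.216 CPM in parental ESCs, 51.0 and 46.1 in 7WT cells and 397 and 430 in 7ΔN cells, which matched the labels. The full-length and truncated lines thus differed in the amount of *Pramel7* RNA as well as in the deletion, and reads of the inserted and the native gene are not separated. All 8 ESC markers listed (*Pou5f1*, *Sox2*, *Nanog*, *Zfp42*, *Esrrb*, *Tdgf1*, *Dppa5a* and *Utf1*) were present in every library, with a sum of 5052 to 6095 CPM. Of these markers 1 was higher and 3 were lower in 7WT cells than in parental ESCs, and 1 higher and 0 lower in 7ΔN cells. The shares of all genes higher and lower were 8.72% and 16.3% in 7WT cells, and 6.25% and 13.6% in 7ΔN cells. Between the derived lines, 4 of the 8 were lower in 7WT cells and 0 higher, beside 9.44% and 10.9% of all genes. The 8 fibroblast markers summed to 52.0 and 71.2 CPM in parental ESCs, 24.98 and 26.57 in 7WT cells and 53.5 and 46.7 in 7ΔN cells, with 3 or 4 of them at 0 in each library, *Dcn* and *Lum* among them. All 3 that could be tested were lower in 7WT cells than in parental ESCs, beside 16.3% of all genes. Most of each sum came from the highest marker of the library. It had 39.5 and 52.3 CPM in parental ESCs, 20.4 and 21.6 in 7WT cells, and 42.2 and 37.7 in 7ΔN cells. In each library 5 or 6 of the 8 were under 1 CPM. The 6 primitive endoderm markers summed to 6.93 to 11.9 CPM, and the 2 red blood cell markers to at most 0.0541. The part of these cells in the results was not tested, and in bulk RNA fewer cells of a type and less RNA per cell cannot be told apart.

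The 10 genes were read deeply and together summed to 14296 to 16072 CPM in each library. Between 7WT cells and parental ESCs, 3 of 10 members were lower (*Slc2a3*, *Hk2* and *Pfkp*) and 0 higher at an adjusted p under 0.05 with limma, while 16.3% of all genes tested were lower and 8.72% higher, 25.1% in all. Between 7ΔN cells and parental ESCs, 1 member was higher (*Slc2a3*, with 6.25% of all genes higher) and 1 lower (*Hk2*, with 13.6% lower and 19.9% called in all). Between the derived lines, 2 members were lower in 7WT cells (*Slc2a3* and *Pfkp*, with 9.44% of all genes lower) and 0 were higher, with 10.9% of all genes higher and 20.4% called in all. A further condition of a log2 fold change beyond 0.58 left *Pfkp* in the first comparison, 0 members in the second and *Slc2a3* and *Pfkp* in the third. The shares of all genes lower under this condition were 8.41%, 8.4% and 4.71%, and those higher 4.08%, 2.86% and 6.64%. With no member higher in 7WT cells by limma, the counts higher at an unadjusted p under 0.05 were 1 over parental ESCs and 1 over 7ΔN cells, *Aldoa* in both, beside 14.3% and 17.8% of all genes.

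The median log2 fold change of the members was -0.0025 for 7WT cells over parental ESCs, beside -0.08 over all genes. It was 0.0012 beside -0.06 for 7ΔN cells and -0.02 beside -0.02 between the derived lines. In each comparison 5 members had positive and 5 negative values. Both comparisons with parental ESCs share the parental libraries.

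**Figure D1:**
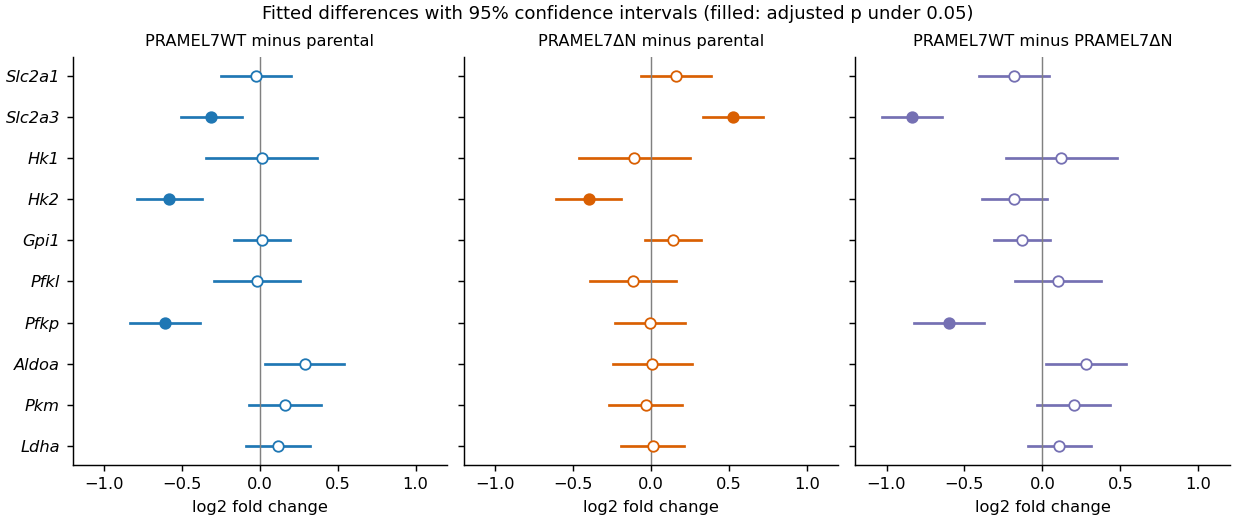
Log2 fold changes from limma (x axis) of the 10 members in the 3 comparisons (panels), with 95% confidence intervals as lines. Filled points passed an adjusted p of 0.05. *Slc2a3* lies below 0 in the left panel and above 0 in the middle, *Hk2* lies below 0 in both, and *Pfkp* lies below 0 in the left and right panels.

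For 9 of the 10 genes, RefSeq promoter windows (GRCm38.p6) from 250 bases before to 50 after the start were at hand, with no entry for *Slc2a3*. The windows of *Hk2* and *Pfkp*, which fell, and of *Pfkl*, the other main phosphofructokinase gene, which did not pass the test, are shown with the core motifs of the hypoxia response element, ACGTG and GCGTG, in capitals on either strand.
Hk2, minus strand, chr6:82774405-82774704: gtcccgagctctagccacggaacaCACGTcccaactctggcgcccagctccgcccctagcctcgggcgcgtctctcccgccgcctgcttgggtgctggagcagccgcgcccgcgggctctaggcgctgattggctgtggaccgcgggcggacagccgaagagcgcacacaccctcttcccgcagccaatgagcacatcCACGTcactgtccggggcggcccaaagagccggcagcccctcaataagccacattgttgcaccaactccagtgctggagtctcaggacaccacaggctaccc
Pfkp, minus strand, chr13:6648722-6649021: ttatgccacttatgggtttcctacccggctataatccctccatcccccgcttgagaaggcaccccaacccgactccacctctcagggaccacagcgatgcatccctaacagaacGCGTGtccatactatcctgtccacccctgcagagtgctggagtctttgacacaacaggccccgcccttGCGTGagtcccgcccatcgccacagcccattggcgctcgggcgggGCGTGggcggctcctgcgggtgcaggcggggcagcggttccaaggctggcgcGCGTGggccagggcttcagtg
Pfkl, minus strand, chr10:78009758-78010057: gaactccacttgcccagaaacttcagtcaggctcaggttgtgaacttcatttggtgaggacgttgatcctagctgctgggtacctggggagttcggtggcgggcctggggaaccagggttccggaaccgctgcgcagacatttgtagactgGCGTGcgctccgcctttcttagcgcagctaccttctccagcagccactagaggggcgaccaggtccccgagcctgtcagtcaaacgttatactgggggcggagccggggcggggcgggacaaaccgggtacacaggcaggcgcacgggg
*Hk2* held 2 matches to ACGTG, *Pfkp* held 4 to GCGTG and *Pfkl* 1 to GCGTG. Over the 14 windows of the 9 genes, 10 windows and 8 genes held either core. Some of these genes have several windows, and some *Aldoa* windows overlap. The share of all genes with a core in any window was not counted, so only the count of windows has a background here. With each strand counted, *Ldha* had the most in a window, 5 of ACGTG and 2 of GCGTG, and *Gpi1* had 0. The letters CACGTG read the same on both strands and give 2 of these matches, which occurred at 2 places in that *Ldha* window. A window of *Hk1* had 2 of ACGTG and 3 of GCGTG. Of all 32851 windows in the table, 19.6% held ACGTG, 32.4% GCGTG and 43.8% either. The E-box CACGTG, which contains ACGTG, stood in 7.15% of all windows and among the members only in *Ldha*, with 2 matches. A match in these letters is a description of the sequence and not a site of binding.

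Of the glucose transporter genes, *Slc2a3* differed between the lines and *Slc2a1* did not pass the test. *Slc2a3* encodes GLUT3, a high-affinity glucose transporter of early embryo cells and neurons, and lies on chromosome 6 from 122727809 to 122801640 (GRCm38). It had 1190 and 1298 CPM in parental ESCs, 1023 and 983 in 7WT cells, and 1820 and 1763 in 7ΔN cells. The 3 lines did not overlap, with the truncated line highest and the full-length line lowest. From a parental mean of 1244 ± 76.4 CPM (SD, n = 2), it rose to 1792 ± 40.2 in 7ΔN cells, a log2 fold change of 0.53 (standard error 0.09, adjusted p = 0.0033 with limma). In 7WT cells it fell to 1003 ± 28.6 CPM, a log2 fold change of -0.31 (adjusted p = 0.029 with limma). The direct difference between the derived lines was -0.84 (95% confidence interval -1.03 to -0.64, adjusted p = 2.91e-04 with limma). The fall in 7WT cells was lost under 10 of the 17 other fits, among them median-ratio scaling between libraries and leaving out parental replicate 2 or any single library of a derived line (adjusted p from 0.006 to 0.195 over all of them). The rise in 7ΔN cells and the direct difference passed in all of them.

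*Slc2a1* encodes GLUT1, the transporter of basal glucose uptake in most cells, and lies on chromosome 4 from 119108711 to 119137983. It had 605 and 733 CPM in parental ESCs, 651 and 659 in 7WT cells, and 756 and 732 in 7ΔN cells. The parental libraries spanned those of the full-length line, and the truncated line lay at their upper end. The log2 fold change was -0.02 in 7WT cells (95% confidence interval -0.25 to 0.20) and 0.16 in 7ΔN cells (-0.07 to 0.38), and neither passed the test. The sign in 7WT cells turned to 0.06 with median-ratio scaling. The ratio of *Slc2a3* to *Slc2a1* in CPM per kilobase of exon was 0.951 and 0.857 in parental ESCs, 0.761 and 0.721 in 7WT cells, and 1.165 and 1.166 in 7ΔN cells. Within every library the scaling of the library cancels in this ratio, and its order across the lines was that of *Slc2a3*.

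**Figure D2:**
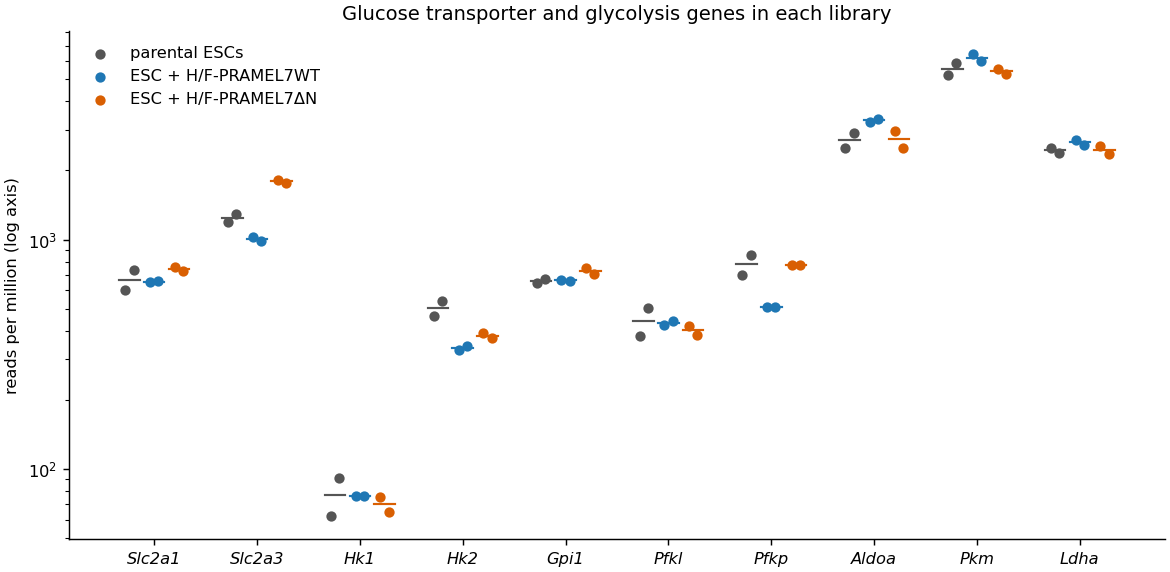
CPM (y axis, log scale) of the 10 members (x axis) in the 2 libraries of each line, with the mean as a bar. *Slc2a3* is highest in 7ΔN cells at 1820 and 1763, *Hk2* is highest in parental ESCs at 466 and 542, and *Pfkp* is lowest in 7WT cells at 509 in both libraries.

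Of the other sugar transporters listed, 4 of 9 were expressed enough to be tested. Among these, 1 was lower in 7WT cells than in parental ESCs, beside 16.3% of all genes. *Slc2a5*, a fructose transporter, fell from 8.08 and 7.57 CPM in parental ESCs to 4.85 and 4.83 in 7WT cells (log2 fold change -0.60, adjusted p = 0.017 with limma, up to 0.112 without either 7WT replicate). It had 5.55 and 5.26 CPM in 7ΔN cells (log2 fold change -0.46, adjusted p = 0.052 with limma). *Slc2a4*, the insulin-responsive GLUT4, had 2.88 to 4.404 CPM over the 6 libraries and did not pass the test in any comparison. *Slc2a2*, the GLUT2 of liver and beta cells, had 0 reads in every library.

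The first enzyme, hexokinase, was represented by *Hk2* and *Hk1*. *Hk2* encodes the inducible hexokinase 2, which can bind mitochondria, and lies on chromosome 6 from 82725025 to 82774454. It had 466 and 542 CPM in parental ESCs, 329 and 343 in 7WT cells, and 389 and 373 in 7ΔN cells. Both derived lines lay below both parental libraries, with the full-length line lowest. The mean of 504 ± 53.9 CPM (SD, n = 2) in parental ESCs fell to 336 ± 10.4 in 7WT cells (log2 fold change -0.58, standard error 0.09, adjusted p = 0.0034 with limma). It fell to 381 ± 11.7 in 7ΔN cells (log2 fold change -0.40, adjusted p = 0.016 with limma). The derived lines differed by -0.18 (95% confidence interval -0.39 to 0.03, adjusted p = 0.20 with limma). Leaving out 7WT replicate 1 brought the first call to an adjusted p of 0.052, the highest of its 17 other fits (lowest 2.23e-05). The second was lost in 5 of 17, namely RPKM without conversion, no filter, no variance trend, and the omission of either 7ΔN replicate (adjusted p from 2.80e-04 to 0.115 over all).

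*Hk1* encodes the constitutive hexokinase 1 and lies on chromosome 10 from 62268855 to 62379908. It had 62.4 and 91.3 CPM in parental ESCs, 76.4 and 75.9 in 7WT cells, and 75.5 and 64.8 in 7ΔN cells. The parental libraries were the farthest apart and spanned both derived lines. The interval of the difference from parental ESCs ran from -0.34 to 0.37 in 7WT cells and from -0.46 to 0.25 in 7ΔN cells on the log2 scale. *Hk2* exceeded *Hk1* 10.7-fold and 8.48-fold per kilobase of exon in parental ESCs, 6.15-fold and 6.47-fold in 7WT cells, and 7.37-fold and 8.22-fold in 7ΔN cells. With the longest principal transcript of each gene, these ratios of means were 4.58, 3.08 and 3.79. *Hk3*, a hexokinase of blood cells, had at most 0.162 CPM.

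*Gpi1* encodes glucose-6-phosphate isomerase, which makes fructose-6-phosphate, and lies on chromosome 7 from 34201330 to 34230336. It varied little, with 646 and 671 CPM in parental ESCs, 668 and 661 in 7WT cells, and 748 and 707 in 7ΔN cells. The truncated line lay above the others, but the log2 fold change of 0.14 did not pass the test (95% confidence interval -0.04 to 0.32). In 7WT cells the interval was -0.17 to 0.19.

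Phosphofructokinase, which phosphorylates fructose-6-phosphate at the committed step, is encoded by *Pfkp* (the platelet type), *Pfkl* (the liver type) and *Pfkm* (the muscle type), whose subunits can mix in tetramers. *Pfkp* lies on chromosome 13 from 6579768 to 6648777. It had 703 and 856 CPM in parental ESCs, 509 in both libraries of 7WT cells, and 774 and 771 in 7ΔN cells. The full-length line lay apart from and below the others, and the truncated line lay within the parental libraries. The mean of 780 ± 108 CPM (SD, n = 2) in parental ESCs fell to 509 ± 0.0254 in 7WT cells, a decrease by 34.7% (log2 fold change -0.61, standard error 0.10, adjusted p = 0.0038 with limma). The difference in 7ΔN cells was -0.01 (95% confidence interval -0.23 to 0.22). The direct difference between the derived lines was -0.60 (interval -0.83 to -0.38, adjusted p = 0.0035 with limma). Both calls passed under all 17 other fits.

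*Pfkl*, on chromosome 10 from 77986947 to 78010083, had 380 and 502 CPM in parental ESCs, 422 and 441 in 7WT cells, and 421 and 385 in 7ΔN cells. Every derived library fell between the parental libraries. The interval of the difference from parental ESCs was -0.30 to 0.26 in 7WT cells, and -0.39 to 0.16 in 7ΔN cells. The ratio of *Pfkl* to *Pfkp* per kilobase of exon was 1.08 and 1.18 in parental ESCs, 1.66 and 1.74 in 7WT cells, and 1.09 and 1.00 in 7ΔN cells. The full-length line thus stood alone in this ratio. *Pfkm* had 64.1 and 70.4 CPM in parental ESCs, 59.9 and 59.6 in 7WT cells, and 46.3 in both libraries of 7ΔN cells. It fell in the truncated line (log2 fold change -0.53, adjusted p = 0.0048 with limma), with a difference of -0.17 in 7WT cells that did not pass. *Pfkp* and *Pfkm* were thus called in different lines, and both differed between the derived lines, in opposite directions (*Pfkm* 0.36, adjusted p = 0.025 with limma, up to 0.17 without any single library of a derived line).

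**Figure D3:**
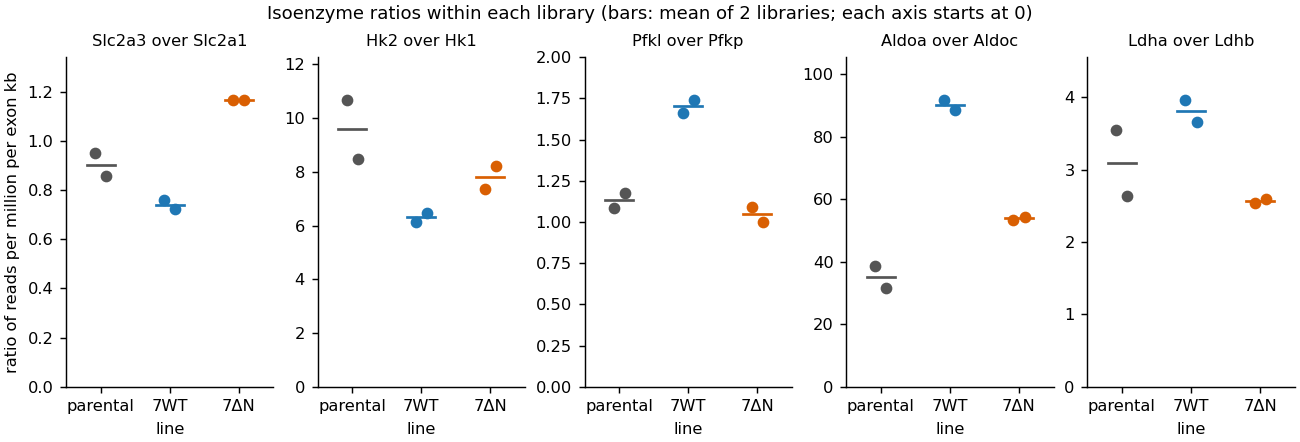
Ratios between isoenzyme genes in CPM per kilobase of exon (y axis, from 0) in the 2 libraries of each line, with the mean as a bar. *Slc2a3* over *Slc2a1* is highest in 7ΔN cells at 1.165 and 1.166, and *Pfkl* over *Pfkp* (1.66 and 1.74) and *Aldoa* over *Aldoc* (91.7 and 88.5) are highest in 7WT cells.

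*Aldoa* encodes aldolase A, which splits fructose-1,6-bisphosphate, and lies on chromosome 7 from 126795234 to 126800751. It fills 2 rows of the table whose values stood in a constant ratio of 1.51, the same reads under 2 lengths, and was counted once. It had 2513 and 2925 CPM in parental ESCs, 3258 and 3363 in 7WT cells, and 2961 and 2512 in 7ΔN cells. The full-length line lay above all other libraries, by 0.29 on the log2 scale over parental ESCs (adjusted p = 0.090 with limma) and 0.28 over the truncated line (adjusted p = 0.11 with limma), and neither passed. Over the other fits the adjusted p ranged from 0.014, with median-ratio scaling, to 0.325 in the first case, and from 0.027, with only the compared lines in the fit, to 0.534 in the second.

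*Aldoc*, the brain-type aldolase, had 57.3 and 81.1 CPM in parental ESCs, 31.3 and 33.4 in 7WT cells, and 48.7 and 40.7 in 7ΔN cells. It fell by 1.05 on the log2 scale in 7WT cells (adjusted p = 0.0025 with limma) and by 0.60 in 7ΔN cells (adjusted p = 0.026 with limma). The second call was lost in 8 of 17 other fits, including the omission of any single library of a derived line (adjusted p up to 0.187), and its value was -0.36 without parental replicate 2. *Aldoc* lies on chromosome 11, and its 109 neighbours had medians of -0.32 and -0.33. The ratio of *Aldoa* to *Aldoc* per kilobase of exon was 38.6 and 31.7 in parental ESCs, 91.7 and 88.5 in 7WT cells and 53.4 and 54.2 in 7ΔN cells.

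*Pkm*, on chromosome 9 from 59656368 to 59679375, encodes the muscle-type pyruvate kinases M1 and M2, which differ by an alternative exon that gene-level values cannot separate. It was the most abundant member, with 5219 and 5871 CPM in parental ESCs, 6417 and 5992 in 7WT cells, and 5536 and 5269 in 7ΔN cells. The full-length line lay highest, and the other lines overlapped. The interval of the difference from parental ESCs was -0.07 to 0.40 in 7WT cells and -0.27 to 0.20 in 7ΔN cells. *Pklr*, the liver and red cell pyruvate kinase, had at most 1.03 CPM.

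*Ldha*, on chromosome 7 from 46841475 to 46855627, encodes the lactate dehydrogenase subunit that favours lactate. It had 2510 and 2382 CPM in parental ESCs, 2719 and 2589 in 7WT cells, and 2557 and 2369 in 7ΔN cells. The libraries of the full-length line lay just above the rest, with an interval of -0.09 to 0.32 for the difference from parental ESCs, and of -0.19 to 0.21 for 7ΔN cells. *Ldhb*, the heart-type subunit, had 336 and 428 CPM in parental ESCs, 325 and 336 in 7WT cells, and 477 and 433 in 7ΔN cells. It differed between the derived lines by -0.46 (adjusted p = 0.022 with limma) and did not pass the test over parental ESCs in either. *Ldhb* lies on chromosome 6, and its 32 neighbours had a median of -0.39 between the derived lines. This call was lost in 7 other fits, among them the omission of any library of a derived line (adjusted p up to 0.15). *Ldha* exceeded *Ldhb* per kilobase of exon 3.54-fold and 2.64-fold in parental ESCs, 3.96-fold and 3.66-fold in 7WT cells, and 2.54-fold and 2.60-fold in 7ΔN cells.

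Levels between genes were compared per kilobase of exon, with all annotated exons of a gene. In parental ESCs *Pkm* stood first at 1109 ± 92.2 (SD, n = 2), followed by *Ldha* at 739 ± 27.4 and *Aldoa* at 733 ± 78.5, whose libraries overlapped. *Slc2a1* at 191 ± 25.8 and *Slc2a3* at 172 ± 10.5 also overlapped, *Gpi1* followed at 102 ± 2.75 and *Hk2* at 84.4 ± 9.03, *Pfkl* at 66.1 ± 13.0 and *Pfkp* at 58.2 ± 8.05 overlapped, and *Hk1* came last at 9.01 ± 2.397. In 7ΔN cells *Slc2a3* (247 ± 5.54) stood above *Slc2a1* (212 ± 4.88). Below *Gpi1*, the libraries of *Hk2*, *Pfkl* and *Pfkp* overlapped there from each gene to the next. In 7WT cells *Hk2* (56.3 ± 1.75) stood below *Pfkl* (64.7 ± 2.04). The close pairs depend on the exon model. With the longest principal transcript of each gene, an alternative added after seeing the data, *Slc2a3* exceeded *Slc2a1* in all 3 lines (1.53-fold, 1.26-fold and 1.98-fold), and *Pfkp* exceeded *Pfkl* in all 3 (ratio of *Pfkl* to *Pfkp* 0.629, 0.942 and 0.58).

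The 3 members that passed the test did not all stand out from the genes around them. Around *Slc2a3*, 94 tested genes within 5 Mb had a median log2 fold change of 0.34 in 7ΔN cells over parental ESCs, where *Slc2a3* had 0.53, with 42 higher and 6 lower among them. In 7WT cells the median was -0.20, with *Slc2a3* at -0.31, and between the derived lines it was -0.46, with *Slc2a3* at -0.84 and 54 of 94 neighbours lower. Of all 603 tested genes on chromosome 6, 30.7% were higher in 7ΔN cells than in parental ESCs, and 47.3% were lower in 7WT cells than in 7ΔN cells. The *Rosa26* locus that received the transgene is on the same chromosome, and the 60 genes within 5 Mb of it had medians of -0.10, 0.31 and -0.43 in the 3 comparisons.

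*Hk2* lies in another stretch of chromosome 6. Its 64 neighbours had medians of -0.53 in 7WT cells and -0.57 in 7ΔN cells over parental ESCs, with 39 and 41 of them lower and 0 higher in either. *Hk2*, at -0.58 and -0.40, lay within their middle range, which ran from -0.75 to -0.36 and from -0.75 to -0.31 (quartiles). *Pfkp*, near an end of chromosome 13, had only 14 tested neighbours, with medians of -0.26, -0.15 and -0.04. Between the derived lines *Pfkp* at -0.60 was below all 14 of them. With the genes of chromosome 6 not counted, an alternative added after seeing the data, 1 member (*Pfkp*) remained lower in 7WT cells than in either other line, and 0 remained called between 7ΔN cells and parental ESCs. The part of these chromosomal shifts in the results for *Slc2a3* and *Hk2* was not tested.

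**Figure D4:**
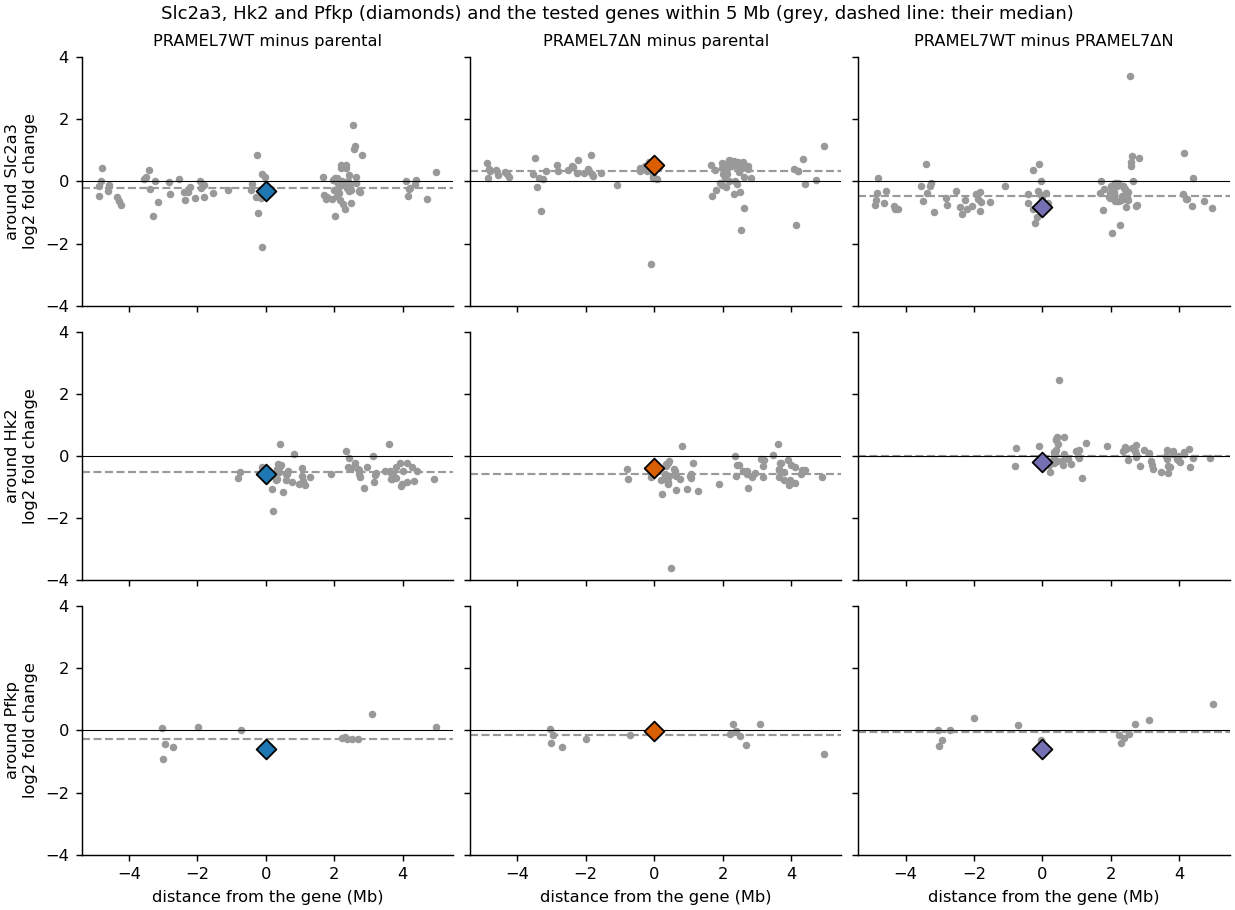
Log2 fold changes (y axis) of *Slc2a3*, *Hk2* and *Pfkp* (rows, diamonds) and of the tested genes within 5 Mb (grey points) by distance from the gene in Mb (x axis), in the 3 comparisons (columns), with the neighbours' median as a dashed line. The neighbours of *Slc2a3* have a median of 0.34 in the middle column and those of *Hk2* of -0.53 and -0.57 in the left and middle columns, whereas *Pfkp* in the right column lies at -0.60 with neighbours around -0.04.

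Around the members, 120 other genes of glucose metabolism were listed by step, and 101 were tested. Of these, 13 were higher, with 18 lower, in 7WT cells than in parental ESCs, 11 higher and 17 lower in 7ΔN cells, and 13 higher and 19 lower in 7WT cells than in 7ΔN cells. The shares higher and lower were 12.9% and 17.8%, 10.9% and 16.8%, and 12.9% and 18.8%, beside 8.72% and 16.3%, 6.25% and 13.6%, and 10.9% and 9.44% of all genes. The medians of the 101 genes were -0.16, -0.04 and -0.07, beside -0.08, -0.06 and -0.02 over all genes. The 11 genes on chromosome 6 gave 5 of the 11 higher in 7ΔN cells and 10 of the 19 lower between the derived lines, so that without them these counts were 6 and 9.

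The remaining steps of glycolysis moved unevenly. Of 4 other upper glycolysis genes tested, 2 were lower and 0 higher in 7WT cells than in parental ESCs, and 1 was higher and 2 lower in 7ΔN cells. Of 8 lower glycolysis genes tested, 1 was lower and 2 higher in 7WT cells than in parental ESCs, with 1 higher and 1 lower in 7ΔN cells. Among all genes, 8.72% were higher and 16.3% lower in 7WT cells, and 6.25% and 13.6% in 7ΔN cells. *Pgk1*, the phosphoglycerate kinase that makes the first ATP of the pathway, rose from 677 and 616 CPM in parental ESCs to 981 and 1005 in 7WT cells (log2 fold change 0.62, adjusted p = 0.0022 with limma). It had 733 and 663 CPM in 7ΔN cells (log2 fold change 0.11, adjusted p = 0.44 with limma). *Pgk1* is on the X chromosome, where its 49 neighbours within 5 Mb had medians of 0.30 and -0.22 in these comparisons. *Eno1*, an enolase with a near-identical gene copy in the table that could share its reads, had 1712 and 1891 CPM in parental ESCs and 2333 and 2226 in 7WT cells (log2 fold change 0.34, adjusted p = 0.026 with limma). It lay at 2078 and 1946 in 7ΔN cells. It was chosen after its values were seen, and the call was lost in 6 other fits, among them quantile normalization and the omission of either 7WT replicate (adjusted p up to 0.264).

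*Gapdh* and *Tpi1*, chosen after their values were seen, encode glyceraldehyde-3-phosphate dehydrogenase and triosephosphate isomerase and lie near each other on chromosome 6. *Gapdh*, which is often used as a reference gene, had 2831 and 3009 CPM in parental ESCs, 3408 and 3356 in 7WT cells, and 4393 and 4153 in 7ΔN cells. Both libraries of the truncated line were above all others. It rose by 0.55 on the log2 scale in 7ΔN cells (adjusted p = 0.0035 with limma, 0.050 with no filter), where its 89 neighbours had a median of 0.36, and the 0.21 in 7WT cells did not pass. *Tpi1* had 625 and 653 CPM in parental ESCs, 706 and 670 in 7WT cells, and 916 and 848 in 7ΔN cells. It rose by 0.46 in 7ΔN cells (adjusted p = 0.0053 with limma, 0.068 without 7ΔN replicate 1 and from 8.82e-04 over the other fits).

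Minor isoenzymes of these steps also differed. *Eno2*, the neuronal enolase, had 2.21 and 4.43 CPM in parental ESCs, 0.807 and 1.10 in 7WT cells, and 5.75 and 4.58 in 7ΔN cells, and fell by 1.10 on the log2 scale in 7WT cells (adjusted p = 0.013 with limma). *Eno3*, the muscle enolase, fell from 13.1 and 12.9 CPM in parental ESCs to 8.86 and 6.47 in 7ΔN cells (log2 fold change -0.70, adjusted p = 0.013 with limma). *Bpgm*, which makes 2,3-bisphosphoglycerate, was lower in 7WT cells than in 7ΔN cells by 0.78 (adjusted p = 0.0034 with limma), with 21.1 and 24.8 against 39.4 and 40.5 CPM. Its 53 neighbours on chromosome 6 had a median of -0.43 in this comparison, the 91 of *Eno2* on that chromosome a median of -0.18 in 7WT cells, and the 159 of *Eno3* on chromosome 11 a median of -0.29 in 7ΔN cells. The *Eno2* call was lost without either 7WT replicate and with no filter (adjusted p up to 0.102) and its value was -0.72 without parental replicate 2, the *Eno3* call without 7ΔN replicate 2 and with no filter (up to 0.108), and the *Bpgm* call without 7WT replicate 1 (0.055, from 1.39e-05 over the other fits).

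**Figure D5:**
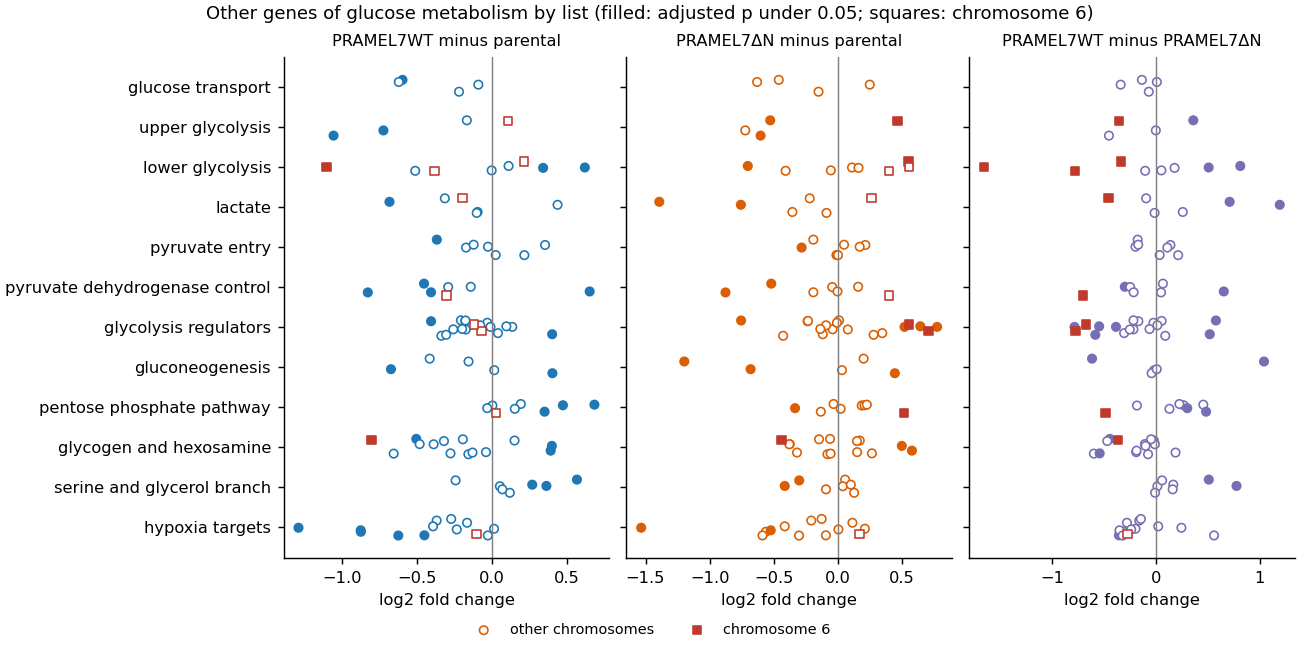
Log2 fold changes (x axis) of the 101 other glucose metabolism genes tested, by list (y axis, points spread within a row), in the 3 comparisons. Filled symbols passed an adjusted p of 0.05, and squares are the 11 genes on chromosome 6, of which 10 are lower in 7WT cells than in 7ΔN cells.

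Among the genes that handle lactate, 1 of 6 tested was lower in 7WT cells and 2 in 7ΔN cells than in parental ESCs, and 0 were higher in either. The shares of all genes lower were 16.3% and 13.6%, and those higher 8.72% and 6.25%. *Ldhc*, a lactate dehydrogenase of the testis, had 7.87 and 6.002 CPM in parental ESCs, 3.43 and 4.45 in 7WT cells, and 1.90 and 2.11 in 7ΔN cells. It fell by 1.39 on the log2 scale in 7ΔN cells (adjusted p = 0.0012 with limma), in all other fits as well. *Ldhd*, a mitochondrial D-lactate dehydrogenase, was at 0.617 and 1.24 CPM in parental ESCs, 1.41 and 1.76 in 7WT cells, and 0.1501 and 0.1053 in 7ΔN cells, too few reads for a firm fold.

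Of 7 genes of the mitochondrial pyruvate carrier and the pyruvate dehydrogenase complex, 1 was lower in either derived line than in parental ESCs. In both comparisons 0 were higher, and 16.3% and 13.6% of all genes were lower. Of the 7 genes that control pyruvate dehydrogenase, 1 was higher and 3 lower in 7WT cells, and 2 were lower in 7ΔN cells. Among all genes, 8.72% were higher and 16.3% lower in 7WT cells, and 6.25% and 13.6% in 7ΔN cells. *Pdp1*, a phosphatase that activates the enzyme, fell from 7.67 and 9.14 CPM in parental ESCs to 4.29 and 4.28 in 7WT cells (log2 fold change -0.83, adjusted p = 0.0065 with limma). It fell to 3.90 and 4.32 in 7ΔN cells (log2 fold change -0.88, adjusted p = 0.0049 with limma). *Pdk3*, a kinase that inhibits the enzyme, had 61.6 and 37.7 CPM in parental ESCs, 78.4 and 74.2 in 7WT cells, and 44.8 and 51.6 in 7ΔN cells (log2 fold change 0.65 in 7WT cells, adjusted p = 0.033 with limma). *Pdk4*, on chromosome 6, was lower in 7WT cells than in 7ΔN cells by 0.70 (adjusted p = 0.0081 with limma), with 19 neighbours at a median of -0.63. Leaving out any single library of a derived line ended the *Pdk3* call (adjusted p up to 0.176), and its value was 1.00 without parental replicate 1 and 0.30 without parental replicate 2, beside a median of 0.33 over its 19 neighbours on the X chromosome. The *Pdp1* calls were lost without a replicate of the respective line (up to 0.060 and 0.055) and the *Pdk4* call without replicate 2 of either derived line (up to 0.097).

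Of 18 regulators of glycolysis, 1 was higher and 1 lower in 7WT cells than in parental ESCs, and 5 were higher and 1 lower in 7ΔN cells. The shares higher and lower were 5.56% and 5.56% in 7WT cells, beside 8.72% and 16.3% of all genes. In 7ΔN cells they were 27.8% and 5.56%, beside 6.25% and 13.6% of all genes. On chromosome 6, where 30.7% of all genes were higher in 7ΔN cells, lie 2 of the 5 regulators higher there. The *Myc* genes, which encode transcription factors known to act on glycolysis genes, moved in opposite directions in the truncated line. *Myc* rose from 46.1 and 40.4 CPM in parental ESCs to 76.1 and 72.9 (log2 fold change 0.77, adjusted p = 0.0011 with limma), while *Mycn* fell from 145 and 189 to 99.0 and 96.2 (log2 fold change -0.75, adjusted p = 0.0029 with limma). In 7WT cells *Myc* had 43.5 and 42.3 CPM and *Mycn* 143 and 150, and neither passed. The ratio of *Myc* to *Mycn* per kilobase of exon was 0.387 and 0.259 in parental ESCs, 0.368 and 0.343 in 7WT cells and 0.932 and 0.918 in 7ΔN cells. The 27 genes around *Myc* on chromosome 15 had a median of -0.12 in the truncated line and the 29 around *Mycn* on chromosome 12 of -0.03. The *Myc* and *Mycn* calls held in all 17 other fits.

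*Tigar*, a fructose bisphosphatase that slows glycolysis, rose from 91.9 and 78.0 CPM in parental ESCs to 143 and 135 in 7ΔN cells (log2 fold change 0.71, adjusted p = 0.0016 with limma), beside a median of 0.35 over its 78 neighbours on chromosome 6. *Egln3*, an oxygen-sensing prolyl hydroxylase, rose from 20.2 and 21.5 to 34.6 and 31.5 CPM (log2 fold change 0.64, adjusted p = 0.0058 with limma, 0.071 without 7ΔN replicate 1 and from 0.0012 over the other fits). *Vhl*, which marks hypoxia-inducible factors for destruction and whose partners include CUL2, was lower in 7WT cells than in 7ΔN cells by 0.67 (adjusted p = 0.0055 with limma), with 62 neighbours on chromosome 6 at -0.43. The *Vhl* call was lost without replicate 2 of either derived line (adjusted p up to 0.075).

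Of 13 hypoxia targets tested outside glycolysis, 5 were lower in 7WT cells and 2 in 7ΔN cells than in parental ESCs, and 0 were higher in either. The share lower was 38.5% in 7WT cells and 15.4% in 7ΔN cells, beside 16.3% and 13.6% of all genes. Their medians were -0.37 and -0.21, beside -0.08 and -0.06 over all genes. In the direct comparison of the derived lines, 1 of the 13 was lower in 7WT cells (7.69%, beside 9.44% of all genes). None was higher, and the median was -0.24, beside -0.02 over all genes. The difference between the lines in the counts over parental ESCs was not tested. *Car12*, a carbonic anhydrase, fell from 8.23 and 10.3 CPM in parental ESCs to 3.68 and 2.74 in 7WT cells (log2 fold change -1.29, adjusted p = 0.0024 with limma). It fell to 2.20 and 2.89 in 7ΔN cells (log2 fold change -1.53, adjusted p = 8.58e-04 with limma), and both calls held in all other fits. *P4ha2*, a collagen prolyl hydroxylase, fell by 0.87 (adjusted p = 0.0050 with limma) and *Bnip3*, a mitophagy receptor, by 0.87 (adjusted p = 0.022 with limma) in 7WT cells. Both were lost when either 7WT replicate was left out (adjusted p up to 0.054 and 0.177), *Bnip3* was at -0.53 without parental replicate 2, and *P4ha2* lies on chromosome 11, where 45.8% of 1103 genes were lower.

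In the branches off glycolysis, 3 of 8 pentose phosphate genes were higher, with 0 lower, in 7WT cells, and 1 was higher and 1 lower in 7ΔN cells, while 8.72% and 6.25% of all genes were higher. The difference between the lines in these counts was not tested. *Pgls*, the lactonase of the oxidative arm, rose from 28.4 and 37.5 CPM in parental ESCs to 48.2 and 58.3 in 7WT cells (log2 fold change 0.68, adjusted p = 0.011 with limma, up to 0.119 without 7WT replicate 2). Of 7 genes of the serine and glycerol branch, 3 were higher, with 0 lower, in 7WT cells, and 2 were lower in 7ΔN cells. The shares of all genes lower were 16.3% in 7WT cells and 13.6% in 7ΔN cells. *Gpd1l*, a glycerol-3-phosphate dehydrogenase homologue, had 49.5 and 51.6 CPM in parental ESCs, 66.2 and 64.5 in 7WT cells, and 38.6 and 36.8 in 7ΔN cells. The derived lines differed by 0.78 (adjusted p = 6.91e-04 with limma), in all other fits as well.

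Of 14 glycogen and hexosamine genes, 2 rose and 2 fell in 7WT cells, with 2 higher and 1 lower in 7ΔN cells. Among all genes, 8.72% were higher and 16.3% lower in 7WT cells, and 6.25% and 13.6% in 7ΔN cells. *Gfpt1*, the first enzyme of the hexosamine route, fell from 38.0 and 34.2 CPM in parental ESCs to 20.49 and 19.98 in 7WT cells (log2 fold change -0.80, adjusted p = 0.0018 with limma), with 99 neighbours on chromosome 6 at a median of -0.51. Of 5 gluconeogenesis genes, 1 was higher and 1 lower in 7WT cells, and 1 higher and 2 lower in 7ΔN cells. The same shares of all genes stand beside these counts. *G6pc3*, the widely expressed glucose-6-phosphatase, fell by 0.67 in 7WT cells and by 0.68 in 7ΔN cells (adjusted p = 0.012 with limma for both, and up to 0.100 without a replicate of the respective line), among 188 neighbours on chromosome 11 at -0.38 and -0.34. *Slc37a4*, the transporter that feeds it, was lower in 7WT cells than in 7ΔN cells by 0.61 (adjusted p = 0.017 with limma, up to 0.142 without a library of a derived line). *Fbp2*, the muscle fructose bisphosphatase, had 1.76 to 2.49 CPM in the libraries of parental ESCs and of 7WT cells and 0.450 and 0.421 in 7ΔN cells (log2 fold change -1.198 over parental ESCs, adjusted p = 0.0021 with limma). At these low levels the value of *Fbp2* ran from -2.32 to -0.42 over the other fits, so the size of the fold is not firm.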

How the data were processed

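Polyadenylated RNA from 2 dishes of each line was sequenced. In the study's methods, reads were cleaned with SortMeRNA 2.1 and Trimmomatic 0.36 and mapped with STAR 2.4.0.1 to mm10. Bowtie2 2.3.4.3, which the submitters' processing notes name, was used for the study's ChIP-seq. These notes also name Subread 1.4.6-p4, with no role. The authors deposited RPKM values per gene. They also deposited tables of their own comparisons (log2 fold changes, errors, p-values), whose results were not used; their mean scaled read signal, deposited by the authors, served only to find the gene length behind RPKM. For 98.4% of 9836 genes the implied length was within 10% of the whole gene span in GENCODE M21, against 9.23% for exon length. RPKM was therefore multiplied by the span and by the same constant in every library (CPM), which keeps the authors' scaling between libraries. Median-ratio factors on these values were 1.03 and 1.04 in parental ESCs, 0.97 and 0.98 in 7WT cells, and 0.98 and 0.99 in 7ΔN cells. In each library, at 1.83e+07 to 1.99e+07 reads on genes, 98.0 to 98.4% of values up to 20 reads came out within 0.1 of a whole read. The members had 1213 to 127138 reads in a library, above the range of this check, and their counting error was not estimated. Of 50978 rows, 94.3% were used. Left out were 26 with names turned into dates, and rows with a repeated symbol or without a single matching gene in GENCODE M21. Repeated rows of 26 symbols held the same reads under different lengths and were kept, each symbol counted once. Counting was not stated to use strand, so overlapping genes may share reads.

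Log2(CPM + 1) was fitted with limma 3.58.1 (R 4.3.3, variance trend) over all 6 libraries for genes above 1 CPM in at least 2 libraries. Fold changes are on that scale, which understates changes of low genes. P-values were adjusted by Benjamini-Hochberg over all 12917 genes tested and called under 0.05, with a second rule of a log2 fold change beyond 0.58. Scripts were tested on simulated data. Levels between genes are CPM per kilobase of exon. The members and lists were chosen with earlier results of these data known. Named were all members, their other isoenzymes, *Pramel7*, and, per list, comparison and direction, at most 3 genes past both call rules; *Tpi1*, *Gapdh* and *Eno1* were named after their values were seen, and 2 isoenzyme genes are not reported here. Alternatives were RPKM without conversion, median-ratio and quantile scaling, pseudocounts of 0.1 and 5, no filter or 10 CPM, only the compared lines, no trend, voom on whole reads, a replicate block, each library left out, both call rules with a fold limit and, added after seeing the data, another exon model and chromosome 6 not counted. Protein sequences were not analysed here.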

Additional observations from a re-analysis of the deposited data

Results flagged for a closer look

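The glucose transporter gene *Slc2a3* differed in direction between the derived lines. It was below parental ESCs in both 7WT libraries and above them in both 7ΔN libraries. The direct difference was -0.84 (adjusted p = 2.91e-04 with limma), beside a median of -0.46 over its 94 neighbours within 5 Mb. Over parental ESCs these neighbours had medians of -0.20 in 7WT cells and 0.34 in 7ΔN cells, the same directions as *Slc2a3*. The fall of *Slc2a3* in 7WT cells was lost with median-ratio scaling, among other fits. The phosphofructokinase gene *Pfkp* fell in 7WT cells alone among the derived lines, and the direct difference was -0.60 (adjusted p = 0.0035 with limma), beside a median of -0.04 over its 14 neighbours.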

How the results depend on the processing

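Of 567 values of the members under the alternatives, 510 kept direction and side of the threshold, 24 lost the call, 9 gained it and 24 changed sign; for the named list genes these were 922, 136, 6 and 2 of 1066. Leaving out a library gave 0 to 2 members higher and 1 to 3 lower in 7WT cells over parental ESCs, 1 to 2 and 0 to 3 in 7ΔN cells, and 0 to 1 and 2 to 2 between the derived lines. For the lists it gave 2 to 16 and 3 to 32, 5 to 17 and 6 to 29, and 2 to 19 and 4 to 28. In 7WT cells over parental ESCs, median-ratio scaling gave 1 member higher, and either fold limit or leaving chromosome 6 uncounted 1 lower. List genes higher were 3 with RPKM (28 genes tested), 7 with no filter, 8 with no trend and 3 with either fold limit, and those lower 1 with RPKM and 11 with no filter. In 7ΔN cells over parental ESCs, 0 members were higher with either fold limit or chromosome 6 uncounted, and 0 lower with these, RPKM, no filter or no trend. List genes higher were 4 with RPKM, 3 with either fold limit and 6 without chromosome 6, and those lower 1 with RPKM, 11 with no filter, 10 with only the compared lines and 9 with the adjusted fold limit. Between the derived lines, 1 member was higher with only the compared lines and 1 lower without chromosome 6; list genes higher were 3 with RPKM and 6 with either fold limit, and those lower 2 with RPKM, 9 with no filter, 8 and 9 with the fold limits and 9 without chromosome 6. Apart from the fold limits and chromosome 6, which count fewer genes, the cause was not tested. The shares of all genes called under the same fits are not given. These counts therefore describe how calls varied with the fit, and not a result particular to these genes.

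With another exon model the ratio of mean levels of *Slc2a3* to *Slc2a1* became 1.53, 1.26 and 1.98 in parental ESCs, 7WT cells and 7ΔN cells, that of *Hk2* to *Hk1* 4.58, 3.08 and 3.79, and that of *Pfkl* to *Pfkp* 0.629, 0.942 and 0.58.

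The log2 fold changes that changed sign belonged to differences that did not pass. Over parental ESCs in 7WT cells they were *Slc2a1* (0.064) and *Pfkl* (0.072) with median-ratio scaling, and *Gpi1* (-0.026), *Ldha* (-0.083) and *Slc2a4* (0.051) with quantile normalization. In 7ΔN cells they were *Pfkp* (0.068) and *Pkm* (0.039) with median-ratio scaling, *Pfkp* (0.0017) with voom and *Pkm* (0.20) with quantile normalization. Between the derived lines they were *Pkm* (-0.12) and *Ldha* (-0.13) with quantile normalization. With a library left out, *Slc2a1* ranged from -0.16 to 0.11, *Hk1* from -0.26 to 0.28, *Gpi1* from -0.015 to 0.040, *Pfkl* from -0.22 to 0.18 and *Slc2a4* from -0.23 to 0.045 in 7WT cells. In 7ΔN cells *Hk1* ranged from -0.38 to 0.16, *Pfkl* from -0.32 to 0.085, *Pfkp* from -0.15 to 0.14, *Aldoa* from -0.11 to 0.13, *Pkm* from -0.12 to 0.049 and *Ldha* from -0.046 to 0.06.

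Deviations of libraries with the same replicate number had correlations of 0.21, -0.25 and -0.10 between the pairs of lines. With 2 libraries a line, these values cannot show whether dishes with the same number were handled together. The replicate block gave 0 members higher and 3 lower, 1 and 1, and 0 and 2 in the 3 comparisons, and 10 list genes higher and 15 lower, 11 and 16, and 11 and 15. Shares of all genes called with the block are likewise not given. Only 2 libraries a line limit the precision.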
